A study of Mus musculus with 24 samples.

Results

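The genes described are 10 components of transforming growth factor beta (TGF-beta) signalling in T11 mouse mammary tumour cells. They comprise the ligand genes Tgfb1, Tgfb2, Tgfb3 and Inhba, the receptor genes Tgfbr1 and Tgfbr2, the signal transducer genes Smad3 and Smad7, and the corepressor genes Ski and Skil. They were taken by symbol from the deposited table, in which all 10 were found among 23235 genes, and all 10 reached the mean of 1 FPKM (fragments per transcript length and library size) that left 10262 genes for comparison. With FPP-1746-Omomyc 4 of the 10 were at least 2-fold above PBS at 3 h (Skil, Tgfb1, Tgfbr1 and Inhba; 6.13% of all tested genes were) and 2 at 6 h (Inhba and Skil; 7.13% of all). None was 2-fold lower, as 4.42% and 3.34% of all tested genes were, and with Omomyc or FPP-1746 alone no member reached 2-fold, as 0.555% to 0.682% of all did. With 10 genes, counts of 0 beside such shares say nothing particular about them. The 10 were chosen with earlier results of these data known, so the counts of higher genes are a description only.

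TGF-beta ligands are secreted in a latent form and, once released, bind a type II receptor (Tgfbr2) that recruits and phosphorylates a type I receptor (Tgfbr1). The type I receptor phosphorylates SMAD2 and SMAD3, which join SMAD4 and regulate genes in the nucleus, while SMAD7 blocks the receptor and SKI and SnoN (the product of Skil) hold SMAD target genes silent. SMAD7 and SnoN are themselves products of SMAD target genes and so close negative feedback loops. Activin A, a dimer of the Inhba product, signals through other receptors to the same SMADs. In mammary tumours the pathway is known for restraining the growth of epithelial cells and for promoting a mesenchymal state.

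T11 is a cultured line from a mouse mammary tumour of the claudin-low kind, and per the labels the cells carry a luciferase gene. Omomyc is a mutant MYC dimerisation domain that binds MAX and E-box DNA in place of MYC, and FPP-1746-Omomyc, the fusion from here on, joins it to the cell-penetrating peptide FPP-1746. The cells, plated in RPMI medium with low serum and grown for several days, received the fusion, either of its parts (each peptide at 5 µM) or PBS for 3 h or 6 h. Each of the 8 groups had 3 biological replicates, 24 samples of a single line in all. For the fusion at 6 h the titles and the column name give 6 h while a treatment tag of its 3 samples gives 3 h, and the titles were followed.

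The table holds 1 averaged FPKM value per gene and group. No spread between replicates can therefore be given, no test was possible, and every difference below is a difference between averages with no replicate check. Column sums ran from 445657 to 594951 FPKM, with the fusion column of 3 h at the top. From the spacing of low values, 1 FPKM on a transcript of 2000 bases corresponded to roughly 51 to 106 fragments per column, an estimate that rests on 36 to 58 genes per column. Of the 6 mesenchymal markers examined all were above the minimum, with Vim between 3302 and 5128 FPKM, and the 7 epithelial markers were at or near 0 (at most 0.0993 FPKM, in Krt8), with Epcam, Krt18 and Cldn3 listed at 0 in every column. Of the 6 macrophage markers Cd14 and Cd68 reached the minimum. All 6 summed to 11.2 to 25.8 FPKM in the columns without the fusion and 81.0 and 121 FPKM with it. Cd14 made up nearly all of these sums, at 77.4 FPKM with the fusion at 3 h and 117.7 FPKM at 6 h. Without the fusion Cd14 was between 10.1 and 24.5 FPKM, and Cd68 did not exceed 3.49 FPKM in any column. The part of these sums in the results was not tested. Emr1 was listed at 0 throughout, and Ptprc, Csf1r and Lyz2 did not exceed 0.0523 FPKM in any column. The 4 endothelial markers summed to at most 0.182 FPKM. In such bulk RNA a lower share of cells that express a gene and less RNA per cell cannot be told apart.

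Upstream sequences are shown for 3 ligand genes with different patterns, Tgfb1, Inhba and Tgfb2, since Omomyc is built on a domain that binds the E-box letters CACGTG. Each run is the 250 bases before the RefSeq transcription start in build GRCm38.p6, read on the gene's strand, and capitals mark a match to CACGTG.
Tgfb1, chr7:25686752-25687001 on the plus strand: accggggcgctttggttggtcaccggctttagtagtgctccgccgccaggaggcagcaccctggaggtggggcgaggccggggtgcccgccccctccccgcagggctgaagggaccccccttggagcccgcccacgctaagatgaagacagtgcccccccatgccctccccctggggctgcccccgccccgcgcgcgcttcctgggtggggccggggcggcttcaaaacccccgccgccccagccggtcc
Inhba, chr13:16011601-16011850 on the plus strand: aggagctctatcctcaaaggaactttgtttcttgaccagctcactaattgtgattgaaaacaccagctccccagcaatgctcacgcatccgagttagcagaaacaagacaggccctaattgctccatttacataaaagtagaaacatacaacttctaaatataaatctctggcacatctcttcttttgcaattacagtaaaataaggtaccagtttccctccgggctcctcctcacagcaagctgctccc
Tgfb2, chr1:186705990-186706239 on the minus strand: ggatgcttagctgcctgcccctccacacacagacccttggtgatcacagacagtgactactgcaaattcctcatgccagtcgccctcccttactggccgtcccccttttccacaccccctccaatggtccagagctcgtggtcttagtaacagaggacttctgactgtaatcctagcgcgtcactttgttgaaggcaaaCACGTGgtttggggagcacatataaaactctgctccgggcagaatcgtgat

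The E-box in Tgfb2 begins 51 bases before the start. Exact matches were sought on both strands, from 250 bases before to 50 after the start, in the 8 RefSeq promoters of the 7 members that the table holds (Tgfb1, Tgfb2, Inhba, Tgfbr1, Tgfbr2, Smad3 and Ski). That E-box was the only match among them to the 5 motifs searched. The canonical E-box CACGTG was in 7.15% of all 32851 promoters of that length, the AP-1 motif TGANTCA in 7.81%, the CRE TGACGTCA in 1.79%, the ATF4 composite TGATGNAA in 3.97% and the SMAD palindrome GTCTAGAC in 0.213%. No matches overlapped. Upstream base composition differed widely: GC was 75.2% in Tgfb1, 53.6% in Tgfb2 and 43.2% in Inhba, beside a mean of 53.2% over all promoters.

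Averaged over the 8 columns, the levels ran in the order Tgfbr2 (24.4 FPKM), Ski (24.4), Inhba (23.5), Skil (20.6), Smad3 (13.0), Tgfb3 (12.3), Tgfbr1 (10.6), Tgfb1 (10.4), Smad7 (8.16) and Tgfb2 (5.23 FPKM). Relative to all tested genes these means lay between percentile 22.7 (Tgfb2) and percentile 63.9 (Tgfbr2), so all members were of low to middle abundance. No replicate values back this order, and neighbours such as Tgfbr2 and Ski, or Tgfbr1 and Tgfb1, cannot be separated.

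**Figure D1:**
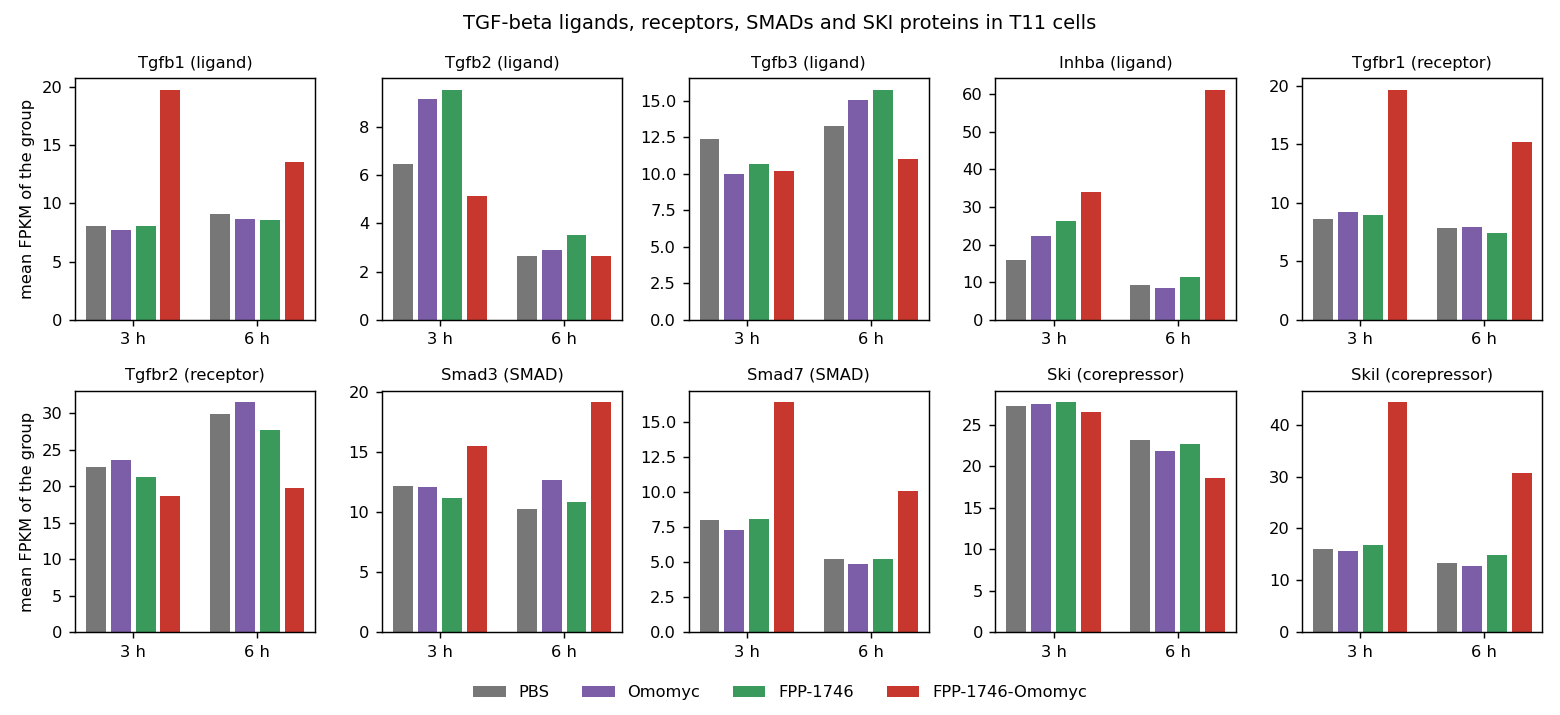
Deposited FPKM (vertical axes, each from 0) of the 10 genes in the 8 groups, 1 averaged value per bar and so no error bars. Skil, Tgfb1, Tgfbr1 and Smad7 stand above the other bars of their time in both fusion columns, Inhba reaches 61.1 FPKM in the fusion at 6 h, and Tgfb2 is lower in all columns at 6 h.

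Among the ligand genes Tgfb1 and Inhba were higher with the fusion, while Tgfb2 and Tgfb3 were not. Tgfb1 encodes the most widely expressed TGF-beta ligand and lies on chromosome 7 from 26472021 to 26490015 (mm9, as are all gene positions from here on). At 3 h it stood at 8.08 FPKM under PBS, at 7.75 under Omomyc, at 8.02 under FPP-1746 and at 19.7 under the fusion. At 6 h the values were 9.06, 8.69, 8.61 and 13.6 FPKM in the same order. The columns without the fusion thus spanned 7.75 to 9.06 FPKM over both times, and both fusion columns lay above them. The log2 ratio of FPKM + 1 to PBS, used throughout and called at 1 (2-fold), was 1.19 at 3 h and 0.53 at 6 h, so that the second value missed the rule.

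Inhba, the subunit gene of activin A on chromosome 13 from 16106308 to 16119044, had the largest difference of the 10. At 3 h it was at 16.0 FPKM under PBS, at 22.2 under Omomyc, at 26.2 under FPP-1746 and at 33.9 under the fusion. At 6 h it was at 9.16, 8.33 and 11.3 FPKM in those columns and reached 61.1 FPKM under the fusion. At 3 h the columns were graded, and all 3 peptides exceeded PBS. At 6 h the fusion alone stood apart. The log2 ratio of the fusion to PBS was 1.04 at 3 h and 2.61 at 6 h, but at 3 h the ratio to FPP-1746 was 0.36 and that to Omomyc 0.59, both short of 2-fold. The 3 h call over PBS was lost in 3 of the 9 alternative settings (0.89 with pseudocount 5, 0.78 with columns rescaled to equal sums and 0.98 after quantile normalisation), whereas the 6 h ratio ranged from 2.19 to 2.75. PBS itself was lower at 6 h than at 3 h, and 2.19 is the value against the mean of the PBS columns.

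Tgfb2, on chromosome 1 from 188447065 to 188529871, was at 6.44 FPKM under PBS, at 9.14 under Omomyc, at 9.52 under FPP-1746 and at 5.13 under the fusion at 3 h. At 6 h the values were 2.65, 2.87, 3.49 and 2.62 FPKM. The time of harvest separated the columns, and all 4 at 6 h lay below all 4 at 3 h. PBS at 6 h against PBS at 3 h gave a log2 ratio of -1.03, the single call among the members in that comparison, where 0.487% of tested genes were lower and 0.380% higher. With pseudocount 5 this ratio was -0.58 and not called. Against PBS of the same time the fusion differed little (-0.28 and -0.01), and at 3 h the sign turned with the mean PBS as reference (0.15). Against FPP-1746 at 3 h it was at -0.78 and against Omomyc at -0.73.

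Tgfb3, on chromosome 12 from 87397693 to 87419991, was between 9.95 and 12.4 FPKM at 3 h and between 11.04 and 15.7 FPKM at 6 h. The fusion was within the range of the other columns at 3 h, at 10.2 FPKM, and the lowest at 6 h. Its log2 ratio to PBS was -0.26 and -0.24.

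The type I receptor gene was higher with the fusion and the type II receptor gene was not. Tgfbr1, on chromosome 4 from 47366177 to 47427796, was at 8.57 FPKM under PBS, at 9.23 under Omomyc, at 8.96 under FPP-1746 and at 19.6 under the fusion at 3 h. At 6 h it was at 7.85, 7.94, 7.40 and 15.2 FPKM. The 6 columns without the fusion lay between 7.40 and 9.23 FPKM, below both fusion columns. Its log2 ratio to PBS was 1.11 at 3 h, past the rule, and 0.87 at 6 h, short of it.

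Tgfbr2, on chromosome 9 from 115996813 to 116084481, was at 22.6, 23.6, 21.3 and 18.7 FPKM at 3 h in the order PBS, Omomyc, FPP-1746 and fusion. By 6 h it stood at 30.0, 31.5, 27.8 and 19.8 FPKM. The fusion column was the lowest at each time, by a log2 ratio to PBS of -0.26 and -0.57, neither of which was called.

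Of the SMAD genes, the inhibitory Smad7 (chromosome 18, 75527019 to 75555588) was higher with the fusion by just under the threshold. It was at 8.0 FPKM under PBS, at 7.33 under Omomyc, at 8.06 under FPP-1746 and at 16.4 under the fusion at 3 h. The 6 h values were 5.25, 4.87, 5.22 and 10.1 FPKM. Both fusion columns exceeded all other columns. The log2 ratio to PBS was 0.95 at 3 h and 0.83 at 6 h, and the plain FPKM ratio, without the added 1, was 2.05 at 3 h and 1.93 at 6 h. The 3 h ratio passed at 1.03 with pseudocount 0.1 and at 1.19 with the mean PBS as reference. It fell to 0.72 with pseudocount 5 and to 0.72 with columns rescaled to equal sums. The 6 h ratio was 0.54 with the mean PBS as reference. Smad7 at 3 h was the nearest member below the threshold, and Inhba at 3 h the nearest above it.

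Smad3, which encodes the receptor-activated transducer and lies on chromosome 9 from 63494574 to 63605801, was at 12.2, 12.1, 11.1 and 15.5 FPKM at 3 h for PBS, Omomyc, FPP-1746 and the fusion. At 6 h the values were 10.3, 12.6, 10.8 and 19.1 FPKM. The fusion was the highest column at each time, with log2 ratios to PBS of 0.32 and 0.84 that were not called.

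The SKI family genes behaved differently from each other. Skil, on chromosome 3 from 30993983 to 31021499, was at 16.0 FPKM under PBS, at 15.6 under Omomyc, at 16.9 under FPP-1746 and at 44.4 under the fusion at 3 h. In the 6 h columns it was at 13.3, 12.8, 14.8 and 30.6 FPKM. All 6 columns without the fusion lay between 12.8 and 16.9 FPKM. Its log2 ratios to PBS, 1.41 and 1.14, made it the only member besides Inhba past the rule at both times, and over the 9 alternatives the 3 h ratio stayed between 1.15 and 1.53. At 6 h the range was 0.96 to 1.24, the lowest with pseudocount 5.

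Ski, the founding gene of the family, on chromosome 4 from 154528184 to 154596644, was between 26.5 and 27.7 FPKM in the 4 columns at 3 h. The later columns held 23.1, 21.8 and 22.6 FPKM for PBS, Omomyc and FPP-1746 and 18.5 FPKM for the fusion. The log2 ratio to PBS was -0.04 at 3 h and -0.30 at 6 h, neither of them called.

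**Figure D2:**
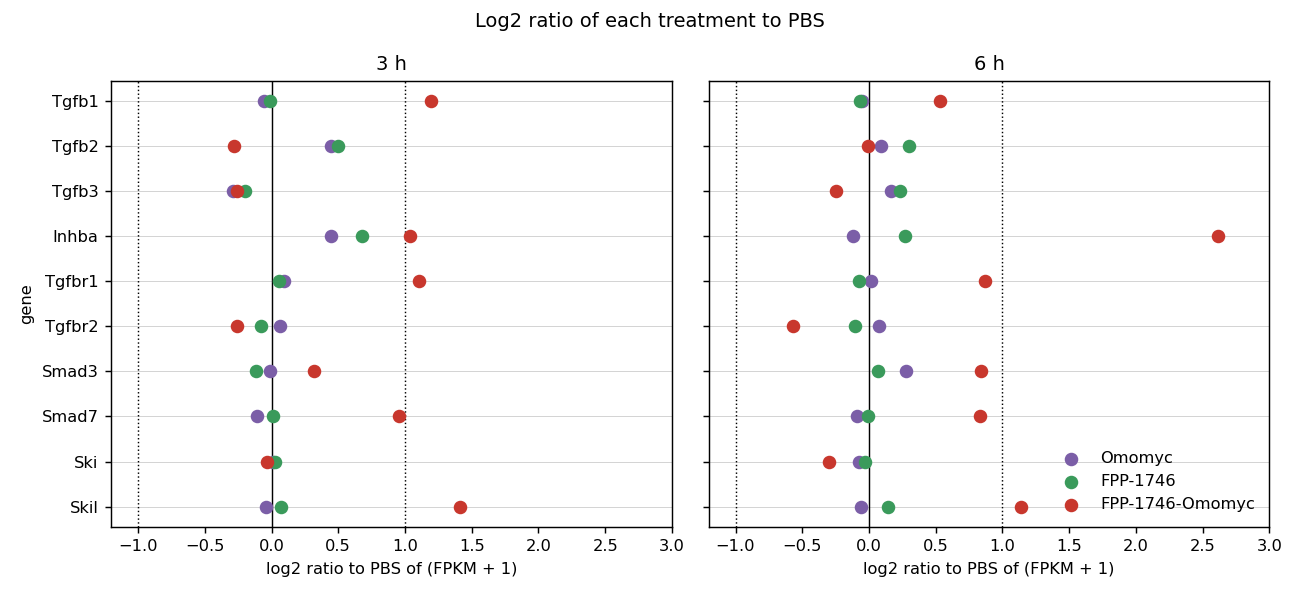
Log2 ratio to PBS of FPKM + 1 (horizontal axis) for each gene with Omomyc, FPP-1746 and the fusion at 3 h and 6 h, 1 point per averaged column; dotted lines mark 2-fold. Skil, Tgfb1, Tgfbr1 and Inhba pass the upper line with the fusion at 3 h, and Inhba (2.61) and Skil (1.14) at 6 h.

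Against the whole table, 4 members higher of 10 at 3 h stood beside 6.13% of all tested genes, and 0 lower beside 4.42%. At 6 h 2 of 10 were higher beside 7.13%, and 0 were lower beside 3.34%. The median log2 ratio of the members was 0.64 at 3 h and 0.68 at 6 h, where that of all tested genes was 0.0034 and -0.026. The members were chosen with earlier results of these data known. These counts and medians therefore describe the members and are no test of the family against other genes. The ratios of the fusion at 3 h moved with the scaling and the pseudocount. With columns rescaled to equal sums the median of all tested genes moved by -0.26 in that comparison, genes past the rule over the whole table went from 629 higher and 454 lower to 444 and 1094, and of the members Skil (1.15) alone still passed, with Tgfb1 at 0.96, Tgfbr1 at 0.87 and Inhba at 0.78. With pseudocount 5 Skil again passed alone, with Tgfb1 at 0.92 and Tgfbr1 at 0.86. Relative to the median shifted by the rescaling these members kept about the same distance, since all ratios move together in that setting.

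The fusion was also set against each of its parts. Over FPP-1746 at 3 h Skil (1.34), Tgfb1 (1.20) and Tgfbr1 (1.05) were called higher, 3 of 10 beside 5.86% of tested genes, and none lower beside 4.01%. Over FPP-1746 at 6 h Inhba (2.34) and Skil (1.00) were higher, 2 of 10 beside 6.94%, and none lower beside 3.21%. Over Omomyc at 3 h Skil (1.45), Tgfb1 (1.24), Smad7 (1.06) and Tgfbr1 (1.01) were higher, 4 of 10 beside 5.56%, with none lower beside 3.76%. At 6 h Inhba (2.73) and Skil (1.20) were higher than with Omomyc, 2 of 10 beside 6.59%, and none lower beside 3.07%. All these comparisons share the fusion column of their time, so they are not separate observations of the fusion.

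Position among the 4 columns of a time was less informative. The fusion was the highest column for 6 of 10 members at 3 h and for the same 6 at 6 h (Tgfb1, Inhba, Tgfbr1, Smad3, Smad7 and Skil). However, 46.0% of all tested genes had the fusion highest at 3 h and 45.9% had it lowest, and 44.0% and 47.3% did so at 6 h. It was the lowest column for 3 members at 3 h (Tgfb2, Tgfbr2 and Ski) and for 4 at 6 h, when Tgfb3 joined them.

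Omomyc and FPP-1746 alone left every member within 2-fold of PBS. No member was called in either direction for FPP-1746 at 3 h (0.614% of tested genes) or at 6 h (0.555%), nor for Omomyc at 3 h (0.614%) or at 6 h (0.682%). At 3 h the largest log2 ratios were those of Inhba, 0.68 with FPP-1746 and 0.45 with Omomyc, and of Tgfb2, 0.50 and 0.45. Both comparisons use the same PBS column. Taken against the mean of the PBS columns, Inhba with FPP-1746 at 3 h reached 1.00. At 6 h no ratio of either part exceeded 0.30.

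Ratios between related genes within a column do not depend on the library scaling of that column. Tgfb1 made up 30.0% of the summed FPKM of the 3 TGF-beta ligand genes in PBS at 3 h, 28.9% under Omomyc, 28.4% under FPP-1746 and 56.3% under the fusion. At 6 h its share was 36.3%, 32.7%, 30.9% and 49.8%. Tgfb1 was thus the most abundant of the 3 ligand mRNAs in both fusion columns, and Tgfb3 was in all 6 others. The sum itself was 26.9 FPKM under PBS and 35.1 under the fusion at 3 h, and 25.0 and 27.2 FPKM at 6 h.

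The receptor and corepressor pairs shifted in the same fusion columns. Tgfbr1 to Tgfbr2 was 0.379 in PBS, 0.391 under Omomyc, 0.420 under FPP-1746 and 1.05 under the fusion at 3 h, and 0.262, 0.252, 0.267 and 0.766 at 6 h. Skil to Ski lay between 0.568 and 0.654 in the 6 columns without the fusion and was 1.67 at 3 h and 1.65 at 6 h with it. Smad7 to Smad3 was 0.656 in PBS and 1.06 with the fusion at 3 h, but 0.512 and 0.529 at 6 h, when both genes were higher.

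**Figure D3:**
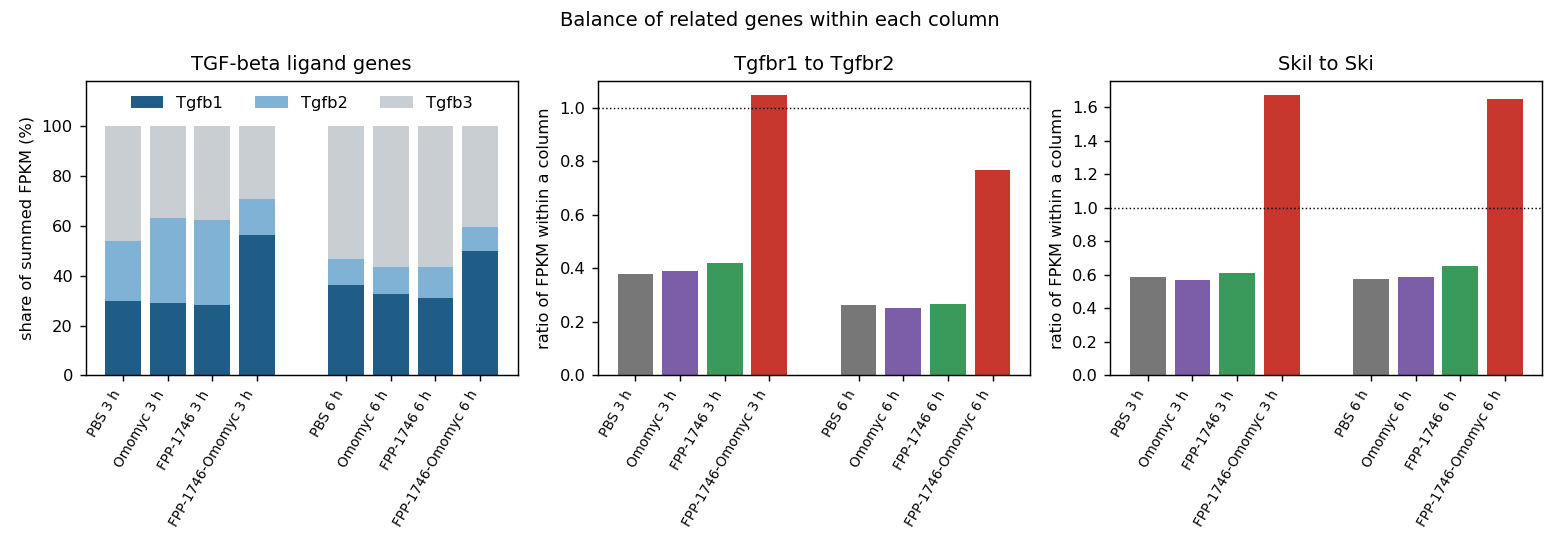
Within-column balance in the 8 groups: the share of Tgfb1, Tgfb2 and Tgfb3 in their summed FPKM (left, percent), and the FPKM ratios of Tgfbr1 to Tgfbr2 (middle) and Skil to Ski (right), 1 averaged value per bar. Skil to Ski is below 0.66 in every column without the fusion and above 1.6 in both fusion columns, and Tgfb1 holds 56.3% and 49.8% of the ligand sum with the fusion.

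Further pathway genes were read from 7 lists that hold 102 genes, of which 101 were in the table (Ldlrad4 was not found by that symbol) and 78 reached the minimum. With the fusion at 3 h 6 of the 78 were higher (7.69%, beside 6.13% of all tested genes) and 2 lower (2.56%, beside 4.42%). The 6 include Bambi, which reached the minimum mean only through the fusion columns and so could be called only as higher. The higher share at 3 h is thus near that of all genes. At 6 h 9 were higher (11.5%, beside 7.13%) and 5 lower (6.41%, beside 3.34%), both above the shares over all genes, on small counts. The lists, too, were chosen with earlier results of these data known. With each part alone none of the 78 was called at either time.

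Genes for ligand latency and activation had 0 of 9 called at 3 h (median log2 ratio 0.43) and 2 of 9 at 6 h (median -0.19). Of all tested genes 6.13% were higher and 4.42% lower at 3 h, and 7.13% and 3.34% at 6 h. Beside such shares, no calls or few calls on this and the following short lists say nothing particular about a list. Itgb8, an integrin subunit that takes part in releasing TGF-beta from its latent complex, went from 1.34 FPKM in PBS to 7.53 FPKM with the fusion at 6 h (1.87) and was at 0.98 at 3 h. Thbs1, whose product thrombospondin can activate latent TGF-beta, was at 231 FPKM under PBS and at 107 under the fusion at 6 h (-1.11). The latent binding protein gene Ltbp1 was at 97.0 and 92.1 FPKM at 3 h and at 73.7 and 50.4 FPKM at 6 h.

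Among 5 tested genes of activin-like ligands and antagonists, Fst alone was called, at both times (list medians 0.20 and -0.54), but its call was lost at 3 h with equal column sums and at 6 h with the mean PBS as reference. Its product follistatin binds and neutralises activin. Fst was at 48.9 FPKM under PBS and at 111 under the fusion at 3 h (1.17), and at 26.4 and 63.9 FPKM at 6 h (1.24). The log2 ratio of the fusion to FPP-1746 was 0.91 and that to Omomyc 0.89 at 3 h, both short of 2-fold. At 6 h they were 1.24 and 1.06. The FPKM ratio of Inhba to Fst was 0.327 in PBS and 0.305 with the fusion at 3 h, so both genes were higher than in PBS in similar proportion. With the parts alone this ratio was 0.372 for Omomyc and 0.447 for FPP-1746 at 3 h. At 6 h it was 0.346 in PBS and 0.956 with the fusion. The other activin subunit genes Inhbb, Inhbc, Inhbe and Inha did not exceed 0.0363 FPKM in any column.

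Of 9 other receptor and co-receptor genes 1 was called at each time (medians 0.65 and 0.44). The pseudoreceptor gene Bambi was at 0.541 FPKM under PBS and at 4.32 under the fusion at 3 h (1.79), and at 0.369 and 1.49 FPKM at 6 h (0.86). It reached the minimum mean only through the fusion columns. Acvr1, a type I receptor gene of the BMP and activin branch, was at 15.5 and 31.7 FPKM at 3 h (0.98) and at 12.5 and 33.3 FPKM at 6 h (1.35).

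No gene among the other SMADs and their anchors was called at either time, 0 of 9, with medians of -0.41 and 0.38. Given the shares over all genes above, the absence of calls is not particular to this list or to the corepressor partners below. The shared partner gene Smad4 was at 34.3 FPKM both in PBS and with the fusion at 3 h, and at 30.8 and 40.3 FPKM at 6 h (0.38). Of 15 regulators of receptors and SMADs 1 was higher at 3 h and 2 at 6 h (medians 0.32 and 0.36). Tgif1, a homeobox corepressor of SMADs, was at 73.1 and 233 FPKM at 3 h (1.66) and at 65.1 and 193 FPKM at 6 h (1.56), and the ubiquitin ligase gene Nedd4l was at 8.85 and 18.9 FPKM at 6 h (1.02). None of 10 SKI relatives and corepressor partners was called (medians -0.06 and -0.07), among them Ncor1 and Hdac3, and Skor1, Skor2 and Dach1 were at or near 0. The corepressor genes past the 2-fold rule with the fusion were thus Skil and Tgif1. Short of it, Hipk2 was at 0.66 and 0.65 and Sin3b at 0.56 and -0.14.

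The list of SMAD3-responsive target genes split in both directions, with 3 higher and 2 lower of 21 at 3 h (median 0.58) and 4 and 4 at 6 h (median -0.07). Of all tested genes 6.13% were higher and 4.42% lower at 3 h, and 7.13% and 3.34% at 6 h. The higher genes were the cell-cycle inhibitor gene Cdkn1a (2.91 and 2.72), the transcriptional repressor gene Bhlhe40 (2.17 and 1.97), the AP-1 gene Junb (1.99 and 1.85) and, at 6 h, the mesenchymal factor gene Snai2 (1.12). The lower genes were the smooth muscle genes Acta2 (-1.48 and -2.59) and Tagln (-1.18 and -1.41), with Tpm1 (-1.29) and Cyr61 (-1.06) at 6 h. Cyr61 had been above PBS at 3 h, at 745 against 404 FPKM (0.88, not called). Acta2 was at 62.2 FPKM under PBS and at 21.7 under the fusion at 3 h, and at 86.2 and 13.5 FPKM at 6 h. Tagln was a low gene, at 3.12 and 0.823 FPKM at 3 h and at 4.50 and 1.07 FPKM at 6 h. These targets also respond to other pathways, and actin genes have close paralogs whose reads may be shared.

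**Figure D4:**
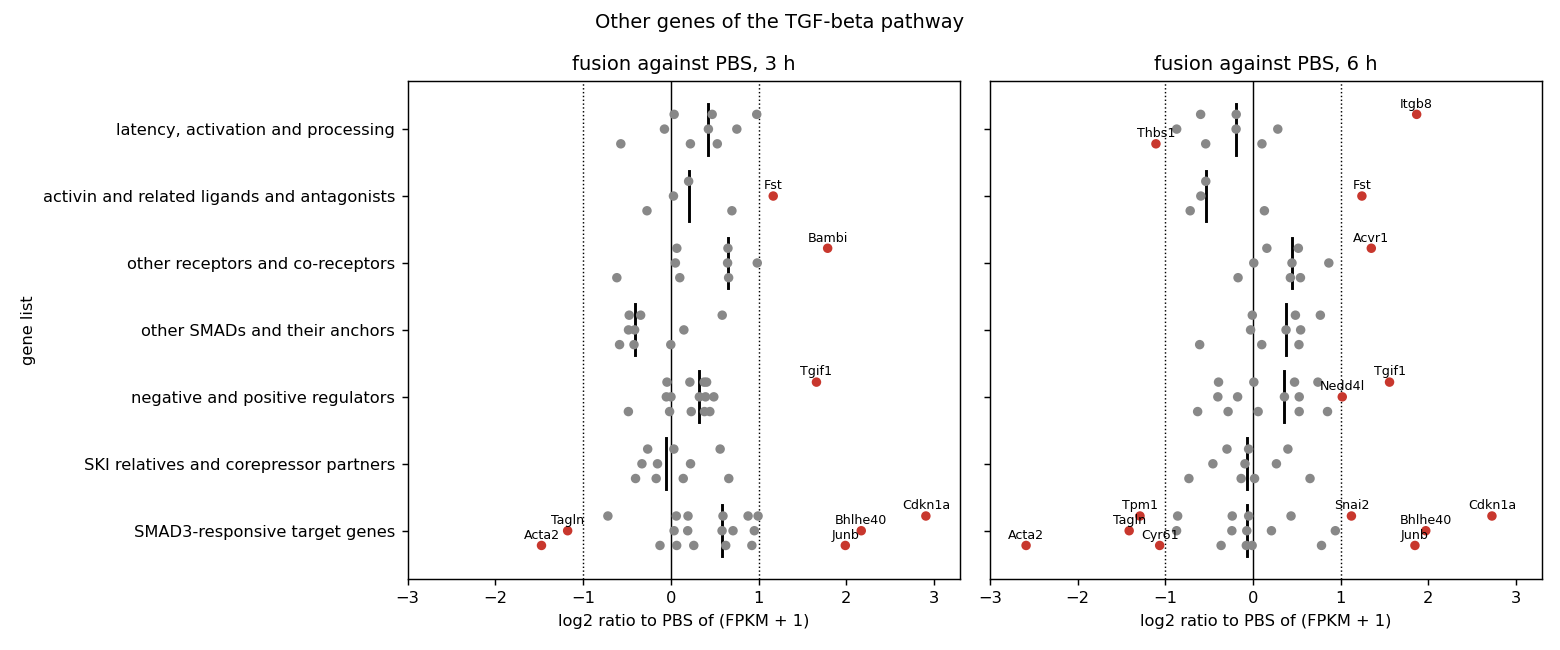
Log2 ratio of the fusion to PBS (horizontal axis, FPKM + 1) of 78 further pathway genes in 7 lists at 3 h and 6 h; each point is a gene, red and named past 2-fold (dotted lines), and black bars are list medians. Fst and Tgif1 pass the upper line at both times, and the SMAD3-responsive list has genes past both lines.

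For the 4 members called against PBS, the genes with the most similar pattern over the 8 columns were ranked by Pearson's r of log2(FPKM + 1) among 9362 genes, as a description only, since all genes share the same columns. Zswim4 (r = 0.9986), Rab40c (0.9972) and Layn (0.9964) were most like Tgfb1. Layn was at 5.12 FPKM under PBS and at 12.1 under the fusion at 3 h, and at 5.60 and 8.29 FPKM at 6 h. Closest to Tgfbr1 were Ndel1 (0.9987), Slc35e4 (0.9970) and Atxn7 (0.9970), and to Skil Adat3 (0.9967), Slc20a1 (0.9961) and Nfil3 (0.9955). Nfil3 went from 10.9 to 100 FPKM at 3 h, a much larger difference than that of Skil. Inhba was matched less closely, by Ranbp9 (0.9898), Yars (0.9897) and Rnf20 (0.9885), all with smaller differences, such as 67.5 and 132 FPKM for Yars at 6 h. Among the members themselves the closest pair was Tgfbr1 and Skil (0.99), and Tgfbr2 ran opposite to Smad7 (-0.93) and Inhba (-0.92).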

How the data were processed

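The authors deposited 1 table of FPKM values, with 8 columns and 23235 rows, named as averages and taken here as means of the 3 replicates of each group. Per the submitters' processing notes, the build was mm9 and the tools were STAR 2.1.3 and, from the Cufflinks 2.2.1 suite, Cuffnorm 2.2.1, with bcl2fastq 2.17.1.14 also named. For settings, library scaling and use of strand, the sources used here give nothing.

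Log2 ratios of FPKM + 1 were computed between group averages for the 10262 genes whose mean reached 1 FPKM, which understates the change of low genes, and a gene was called at 2-fold. No member's locus overlapped another row of the table. Starts were shifted to count from 1: of 20652 symbols shared with RefSeq, the span equalled the RefSeq span for 7165 with starts counted from 0 and for 456 counted from 1. Promoters came from RefSeq (GRCm38.p6), a build other than that of the table, and were matched by symbol for 7 of 10 members.

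The members, lists and comparisons were chosen with earlier results of these data known. Named genes are all members, list genes past 2-fold for the fusion at either time or needed to state a role, and the 3 genes most like each called member, small RNA records and predicted genes left out. Examples that were not called (Ltbp1, Smad4, Ncor1, Hdac3, Hipk2, Sin3b, Itga5, Col1a2, Col3a1, Timp1), and Ctgf, were chosen after their values were seen. 1 gene of the SMAD3-responsive list is not reported here and was left out of the list counts. Alternatives were pseudocounts of 0.1 and 5, 3 rescalings, 2 filters, a 1.5-fold rule and the mean PBS as reference, and for counts over the whole table the removal of 141 small RNA records. Python 3.11.15, numpy 2.4.6, pandas 2.3.3 and scipy 1.17.1 were used.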

Additional observations from a re-analysis of the deposited data

How the results depend on the processing

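With 1 averaged column per group, no replicate could be left out and no error estimated. No paired analysis was possible because the columns carry no replicate numbers and no test was run. Depth is known only from the rough estimate above. Of 940 ratios of members under the alternatives, 891 stayed on their side of the rule, 21 fell short of it and 28 newly passed; no called ratio changed sign. Centring and the absence of a filter moved no count of members or list genes by over 1.5 times. The cause of the changes below was not tested, beyond what each setting does by construction.

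Pseudocount 5 left 1 member higher with the fusion over PBS at 3 h (4 in the main setting) and 1 at 6 h (2), 1 over FPP-1746 at each time (3 and 2), 1 over Omomyc at 3 h (4), and 0 lower in PBS over time (1). In the lists it called 0 receptor genes at 3 h (1), and at 6 h 1 latency gene and 1 regulator (2 each). Pseudocount 0.1 called 1 latency gene (0) and 3 receptor genes (1) at 3 h and 2 receptor genes (1) at 6 h. Equal column sums left 1 member higher over PBS (4), 1 over FPP-1746 (3) and 2 over Omomyc (4) at 3 h, made Tgfb2 1 lower member over each part (0), and called 0 activin-list genes at 3 h (1) and 2 receptor genes at each time (1). Quantile normalisation called 1 latency gene at each time (0 and 2) and 1 regulator at 6 h (2). A minimum of 5 FPKM left 0 receptor genes at 3 h and 1 latency gene at 6 h.

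The mean PBS reference called 1 member higher with FPP-1746 at 3 h (0), 1 latency gene, 2 receptor genes and 8 target genes (5) at 3 h, and 0 activin-list genes and 1 regulator at 6 h. The 1.5-fold rule called 5 members higher over PBS at 6 h, 1 with FPP-1746 at 3 h, 6 over FPP-1746 and 5 over Omomyc at 6 h, 1 lower over each part at 3 h and over Omomyc at 6 h, and 2 lower in PBS over time. Under it the lists had 2 latency, 2 activin-list, 6 receptor, 2 SMAD, 1 corepressor and 13 target genes at 3 h, and 4 latency, 3 activin-list, 2 receptor, 2 SMAD, 2 corepressor genes and 5 regulators at 6 h. Over the whole table the fusion at 3 h gave 381 higher and 154 lower genes with pseudocount 5, 759 and 704 with 0.1, and 598 and 414 without records of small RNAs; at 6 h pseudocount 5 gave 365 and 152. The 1.5-fold rule gave 1612 and 1492 at 3 h and 1787 and 1564 at 6 h.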

Other observations

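At 3 h Acta2, the smooth muscle actin gene, was at 62.2 FPKM in PBS, 101 with Omomyc and 101 with FPP-1746, a log2 ratio of 0.69 for each that was not called. Thbs1 was at 551, 816 and 892 FPKM (0.57 and 0.69). In the SMAD3-responsive list, which holds Acta2 but not Thbs1, Ctgf was at 0.47 and 0.89, Itga5 at 0.55 and 0.64 and Tagln at 0.50 and 0.65. The collagen genes Col1a2 (0.09 and 0.05) and Col3a1 (0.09 and 0.07) differed less, and Timp1 was at -0.12 and 0.04. Of the 21 tested genes of that list 18 lay above PBS with Omomyc and 19 with FPP-1746 at 3 h (medians 0.12 and 0.11), where 54.9% and 52.8% of all tested genes did (medians 0.011 and 0.0054). At 6 h 14 and 16 did (medians 0.02 and 0.14), beside 50.7% and 52.3% of all. These genes were picked after their values were seen. Both comparisons at a time rest on the same PBS column, and the part of that column in these values was not tested.

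In PBS, without any peptide, Ctgf went from 58.5 FPKM at 3 h to 15.7 FPKM at 6 h (-1.83) and Thbs1 from 551 to 231 FPKM (-1.25). Beside them stood Tgfb2 (-1.03), Fst (-0.86), Inhba (-0.74) and Smad7 (-0.52), while Tgfbr2 was at 0.39 and Tgfb1 at 0.15. Time and any handling that went with it cannot be told apart in these columns.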
